A study of Mus musculus with 32 samples.

Results

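Expression of 7 genes that mark the upper hair follicle and its junctional zone in mouse skin, Lrig1, Lgr6, Plet1, Gata6, Krt79, Defb6 and Cst6, was read from the counts of 32 libraries. The genes were taken by name, 7 of 19970 gene names that occurred in the files, and each was present in at least 29 of the 32 gene lists. The libraries were made by CEL-seq2, which counts the 3′ ends of polyadenylated transcripts, from bulk cells of strain Bl/6 that were sorted into Trizol.

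Late organoids (passages 23 to 30, up to 6 months of culture, 7 days after the last passage) gave 6 libraries in medium with forskolin, which raises cyclic AMP, and Fgf1. Early organoids (passages 7 to 12, up to 3 months, labelled as 7 days after the last passage or 7 days after culture) gave 4 libraries with forskolin and a TGF-beta inhibitor, 2 with the inhibitor alone, 2 with forskolin and Fgf1 and 4 with forskolin and Fgf10. Unpassaged organoids, at 7 days, gave 1 library for each of these 4 media and 1 with forskolin alone. Tissue gave 3 libraries of interfollicular epidermis gated on Itga6 and Sca1 (sorted epidermis below), 3 of anagen follicles and 3 of anagen and telogen follicles mixed. Nothing in the labels ties replicates to separate animals or cultures, so a p-value here covers library-to-library spread that may be technical. In bulk RNA fewer cells of a type and less RNA per cell cannot be told apart.

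The junctional zone and infundibulum join the hair follicle to the surface epidermis and carry the opening of the sebaceous gland. Lrig1 and Lgr6 are membrane proteins that mark progenitor cells of this region; Lrig1 dampens signalling by EGF receptors, and Lgr6 binds R-spondins and is also known from interfollicular epidermis. Plet1 is a surface protein of the upper isthmus, Gata6 a transcription factor of the junctional zone and sebaceous duct, Krt79 a keratin of the cells lining the canal and duct, Defb6 a beta-defensin, and Cst6 (cystatin M/E) an inhibitor of cathepsins and legumain in the outer layers.

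The promoters of Krt79 and Defb6 are shown because both members were lower in anagen than in mixed follicles and in late organoids than in sorted epidermis, as described further on. Each run is the 250 bases before the start of the gene, 5′ to 3′ on the gene's strand, from RefSeq on GRCm38.p6, at chr15:101940325-101940574 (minus strand) for Krt79 and at chr8:19225228-19225477 (plus strand) for Defb6. Capitals mark a match to 1 of 4 motifs searched on both strands: AGATAA and also TGATAA for GATA factors, TATAAA for the TATA box, TGANTCA for AP-1 and TGACGT for the core of the cyclic AMP response element.
Krt79: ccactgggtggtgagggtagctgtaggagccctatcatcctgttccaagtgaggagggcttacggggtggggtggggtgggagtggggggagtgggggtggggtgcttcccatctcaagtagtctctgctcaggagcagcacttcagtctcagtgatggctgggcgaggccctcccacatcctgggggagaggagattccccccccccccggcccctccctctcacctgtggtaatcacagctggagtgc
Defb6: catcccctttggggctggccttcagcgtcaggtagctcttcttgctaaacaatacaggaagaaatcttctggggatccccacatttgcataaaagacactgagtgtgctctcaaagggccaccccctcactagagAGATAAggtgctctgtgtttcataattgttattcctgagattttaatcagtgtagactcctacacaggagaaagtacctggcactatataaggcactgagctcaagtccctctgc
The Defb6 window held 1 match, to GATA, at bases -115 to -110, and the Krt79 window held none. Of 27025 promoter windows of this length, 17% held GATA, 13% the TATA box, 6.87% AP-1 and 6.56% the cyclic AMP element core. Of the other members, the Plet1 window held a TATA box at -30 to -25 and an AP-1 match at -144 to -138, and the Lrig1 and Lgr6 windows held none of the 4. A match is a description of letters only, and variants of these motifs, for the TATA box or the others, were not searched.

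Library totals without spike-ins ran from 412582 to 3351435 counts (median 1505354), and values below are CPM, each count divided by that total and scaled to 1000000. Files with the same list of gene names formed 11 source tables, which are the only batches the files show. Gene positions given below are from GENCODE M21 on GRCm38, the assembly called mm10, where all 7 genes are protein-coding. Cst6 and Defb6 have no row in the table of late replicates 1 and 2, and Gata6 none in that of the anagen follicles; such a gene was taken as a count of 0. Of 934 genes at 100 CPM or more in each of late replicates 3 to 6, 8 had no row in the table of replicates 1 and 2. Those 2 libraries also had the lowest summed level of 7 suprabasal genes among the late organoids, 97 and 158 CPM, against 864 to 22154 CPM in replicates 3 to 6. Summed inner root sheath and hair shaft markers (5 genes) were 0 to 1.35 CPM in sorted epidermis, 28220 to 39320 CPM in anagen follicles and 6281 to 15340 CPM in mixed follicles. All 5 of these markers were at 0 in late organoids.

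The 7 genes, named for the follicle, did not share 1 order of the tissue groups. Lrig1, Lgr6 and Gata6 had their highest group mean in sorted epidermis, Krt79, Defb6 and Cst6 in mixed follicles, and Plet1 in the single unpassaged library with forskolin and the inhibitor. Differences were tested across all genes by quasi-likelihood in edgeR after TMM scaling, and a gene passed where its p, adjusted by Benjamini-Hochberg over all genes tested, was under 0.05. In sorted epidermis against anagen follicles 4 of 7 members were higher and none lower, where 34.2% of 10843 genes passed in either direction (14.8% higher, 19.4% lower). In sorted epidermis against mixed follicles 1 was higher and 2 were lower (all genes 30.3%, with 11.9% higher and 18.5% lower). In anagen against mixed follicles 2 were lower (all genes 6.63%, with 5.42% lower). In late organoids 2 were lower than in sorted epidermis (all genes 21.8%, with 12.2% higher and 9.53% lower) and 3 lower than in mixed follicles (all genes 39.7%, with 22.5% lower). In early organoids of 4 media 5 were lower than in sorted epidermis (all genes 38.5%, with 19.7% lower). These comparisons share samples, so their results are not independent.

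TMM factors lay between 1.286 and 1.36 for sorted epidermis, between 0.575 and 1.214 for anagen follicles and between 0.411 and 0.791 for mixed follicles, so a fitted fold change can differ from the ratio of CPM. Scaling by library totals gave a median log2 fold change of all genes of 0.92, against -0.08 with TMM, for sorted epidermis against mixed follicles, 0.64 against 0.09 for anagen against mixed follicles and 0.28 against -0.15 for sorted epidermis against anagen follicles. Of genes called in the first of these comparisons, 39.1% were higher with TMM and 77.7% with library totals. In sorted epidermis against anagen follicles the shares were 43.4% and 61.9%, and in anagen against mixed follicles 18.2% and 42.8%.

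**Figure D1:**
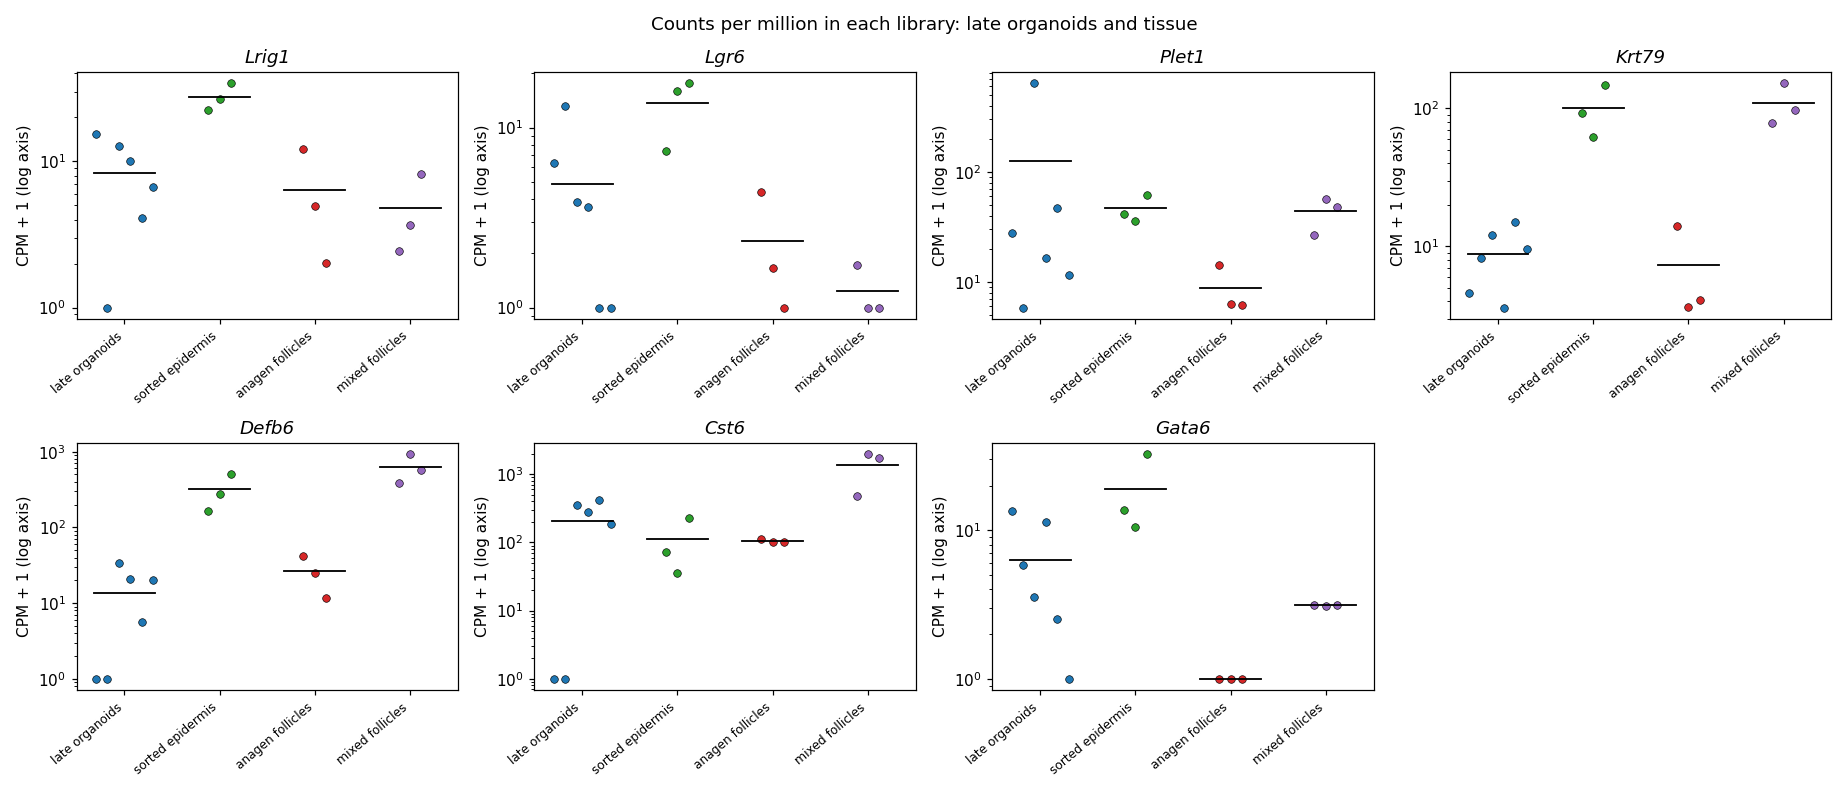
CPM + 1 on a log axis for each library of late organoids, sorted epidermis, anagen follicles and mixed follicles, 1 panel per gene, with the group mean as a line. Krt79 and Defb6 are high in sorted epidermis and mixed follicles and low in anagen follicles and late organoids; Plet1 of late replicate 3 stands at 640.5 CPM.

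Lrig1 (chr6:94604529-94700158, minus strand), the regulator of EGF receptors, was highest in sorted epidermis, with 21.3, 25.7 and 33.3 CPM, against 11.2, 3.95 and 1.03 CPM in anagen follicles and 1.43, 2.69 and 7.22 CPM in mixed follicles. All 3 epidermis libraries lay above all 6 follicle libraries. The fitted difference did not pass the test against anagen follicles (log2 fold change 1.95 ± 0.75 SE, adjusted p = 0.0517) or mixed follicles (1.64 ± 0.79, adjusted p = 0.124). With library totals both passed, with log2 fold changes of 2.28 (adjusted p = 0.0365) and 2.84 (adjusted p = 0.0114). The first also passed in DESeq2 (adjusted p = 0.0275), with RLE scaling (0.0462) and with upper quartile scaling (0.0329). With a term for replicate number, called a replicate block here and below, its adjusted p was 0.0488, but these numbers do not pair samples. It passed without the filter on low counts (0.0281) too. With the 2 groups alone both passed (0.0127 and 0.0119). Leaving out each library gave an adjusted p of 0.0262 to 0.143 for the first and 0.0197 to 0.36 for the second. Late organoids ranged from 0 to 14.4 CPM with a median of 7.41, below every epidermis library, and did not pass (-1.57 ± 0.63, adjusted p = 0.0847).

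Lgr6 (chr1:134983301-135105276, minus strand), the R-spondin receptor, was rare, with 63 counts over all 32 libraries. It had 6.39, 14.9 and 16.7 CPM in sorted epidermis, against 3.4, 0.658 and 0 CPM in anagen follicles and 0.716, 0 and 0 CPM in mixed follicles, and the epidermis did not overlap with either. It was higher in sorted epidermis than in anagen follicles (2.77 ± 1.00, adjusted p = 0.0394) and than in mixed follicles (adjusted p = 0.0112), where the 1 count in mixed follicles gave a ratio of 80.6 with a 95% exact interval of 13.1 to 3320. The first call was lost without anagen replicate 2 (adjusted p = 0.117) or 3 (0.0908) or epidermis replicate 2 (0.106) or 3 (0.102), and the second without mixed replicate 2 (0.0809). Late organoids ranged from 0 to 12.1 CPM (median 2.74), with 2 libraries at 0.

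Plet1 (chr9:50494525-50505482, plus strand), the surface protein of the upper isthmus, had 40.4, 35.2 and 61.1 CPM in sorted epidermis, against 13.1, 5.26 and 5.13 CPM in anagen follicles and 25.8, 55.5 and 46.9 CPM in mixed follicles. Anagen follicles lay below the other tissue libraries, and epidermis and mixed follicles overlapped. None of the 3 tissue comparisons passed; the fitted difference of sorted epidermis from mixed follicles was -1.08 with TMM and 0.08 with library totals. Late organoids held 26.96, 4.85, 640.5, 15.6, 46.4 and 10.5 CPM in replicates 1 to 6, so that 1 library carried most of the group's 2073 counts. Against sorted epidermis the log2 fold change was 1.63 ± 1.09 (adjusted p = 0.31) with that library and -0.85 (adjusted p = 0.28) without it. Against mixed follicles it was 0.55 ± 1.00 (adjusted p = 0.699) with it and -1.93 (adjusted p = 0.00621) without it.

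Gata6 (chr18:11052064-11085635, plus strand), the transcription factor, had 12.8, 9.47 and 31.5 CPM in sorted epidermis, against 2.15, 2.09 and 2.17 CPM in mixed follicles, and has no row in the anagen table. Its 86 counts over all libraries make single values imprecise. Sorted epidermis was at least 33-fold higher than anagen follicles, set against a floor of 3 counts over that group (0.543 CPM), and the fit called it (adjusted p = 0.00125). The difference from mixed follicles did not pass (1.97 ± 0.92, adjusted p = 0.119), but passed with library totals (3.01, adjusted p = 0.0204). Leaving out each library gave an adjusted p of 0.12 to 0.398. Anagen follicles were at least 3.93-fold lower than mixed follicles against the same floor. That difference did not pass (adjusted p = 0.0583), but passed in DESeq2 (0.0189) and without the filter on low counts (0.0158). It did not pass with any library left out (adjusted p 0.09 to 0.154). Late organoids ranged from 0 to 12.6 CPM (median 3.7) and overlapped both sorted epidermis and mixed follicles.

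Krt79 (chr15:101929332-101940324, minus strand), the keratin of the canal, had 91.5, 60.9 and 148 CPM in sorted epidermis, against 13.1, 2.63 and 3.08 CPM in anagen follicles and 77.4, 152 and 96.7 CPM in mixed follicles. Anagen follicles lay below all 6 other tissue libraries. It was higher in sorted epidermis than in anagen follicles (3.53 ± 0.57, adjusted p = 0.000173) and lower in anagen than in mixed follicles (-4.77 ± 0.59, adjusted p = 4.36e-05). Sorted epidermis against mixed follicles did not pass (-1.24 ± 0.50, adjusted p = 0.0674). It passed with the 2 groups alone (adjusted p = 0.00512), with a replicate block (0.0246) and without epidermis replicate 3 (0.0481). Over all 14 alternatives the log2 fold change ran from -1.64 to -0.12, with an adjusted p of up to 0.87. Group means were 100.1 CPM in sorted epidermis and 108.6 CPM in mixed follicles. With TMM scaling over all 32 libraries they were 77.7 and 177.5 CPM. Late organoids ranged from 2.6 to 13.9 CPM (median 7.92), below every library of sorted epidermis and of mixed follicles. They were lower than sorted epidermis (-3.36 ± 0.46, adjusted p = 7.01e-05) and than mixed follicles (-4.60 ± 0.46, adjusted p = 7.75e-07), and both calls held under every alternative run.

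Defb6 (chr8:19225478-19228209, plus strand), the beta-defensin, had 162, 279 and 509 CPM in sorted epidermis, against 41.3, 24.3 and 10.8 CPM in anagen follicles and 387, 921 and 564 CPM in mixed follicles. It was higher in sorted epidermis than in anagen follicles (3.25 ± 0.82, adjusted p = 0.00543) and lower in anagen than in mixed follicles (-5.34 ± 0.90, adjusted p = 0.000873). The lower level in sorted epidermis than in mixed follicles (-2.09 ± 0.77, adjusted p = 0.0484) was lost with upper quartile scaling (adjusted p = 0.0782), with library totals (adjusted p = 0.315) and without any 1 of the 6 libraries (adjusted p 0.0527 to 0.17). Late replicates 3 to 6 had 32.9, 19.5, 4.64 and 19.1 CPM and replicates 1 and 2 had no row, all below every library of sorted epidermis and mixed follicles. Late organoids held 0 to 2.24 CPM of summed Langerhans and T cell markers, against 152 to 300 CPM in sorted epidermis, a difference whose part was not tested. Late organoids were lower than sorted epidermis (-4.23 ± 0.67, adjusted p = 0.000271) and than mixed follicles (-6.33 ± 0.71, adjusted p = 2.75e-06).

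Cst6 (chr19:5344705-5349574, minus strand), the cystatin, had 72.4, 35.2 and 226 CPM in sorted epidermis, against 113, 99.3 and 102 CPM in anagen follicles and 471, 1955 and 1726 CPM in mixed follicles. Sorted epidermis lay below every library of mixed follicles and around the anagen values. It was lower in sorted epidermis than in mixed follicles (-4.87 ± 1.43, adjusted p = 0.0154), a call lost without epidermis replicate 1 (adjusted p = 0.0647) or 2 (0.0701). Anagen follicles also lay below every library of mixed follicles, a difference that did not pass (-4.34 ± 1.39, adjusted p = 0.0724). It passed in DESeq2 (adjusted p = 0.0402), in 1 fit of 27 libraries (0.0214), with a replicate block (0.0111) and with the 2 groups alone (0.003). It did not pass with any library left out (0.0673 to 0.226). Late replicates 3 to 6 had 358, 276, 415 and 186 CPM of Cst6, and replicates 1 and 2 had no row. Late organoids were lower than mixed follicles (-3.70 ± 1.03, adjusted p = 0.00837). Against sorted epidermis the difference was 1.17 ± 1.12 (adjusted p = 0.499) over all 6 libraries and 1.75 (adjusted p = 0.0448) over replicates 3 to 6.

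Markers of other cells moved with the anagen against mixed difference of Krt79 and Defb6. Of 5 fibroblast markers tested 4 were lower in anagen follicles, with a summed level of 33.9 to 510 CPM in anagen and 886 to 1919 CPM in mixed follicles. Both red blood cell markers tested were lower (summed 0 to 0.486 CPM in anagen and 41.5 to 140 CPM in mixed follicles), as were 2 of 3 Langerhans and T cell markers (0.658 to 4.86 CPM in anagen and 34.4 to 78.8 CPM in mixed follicles). Of 6 basal epidermis genes 3 were lower, with 354 to 2247 CPM in anagen and 7066 to 12970 CPM in mixed follicles. The part of these markers in the result was not tested.

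**Figure D2:**
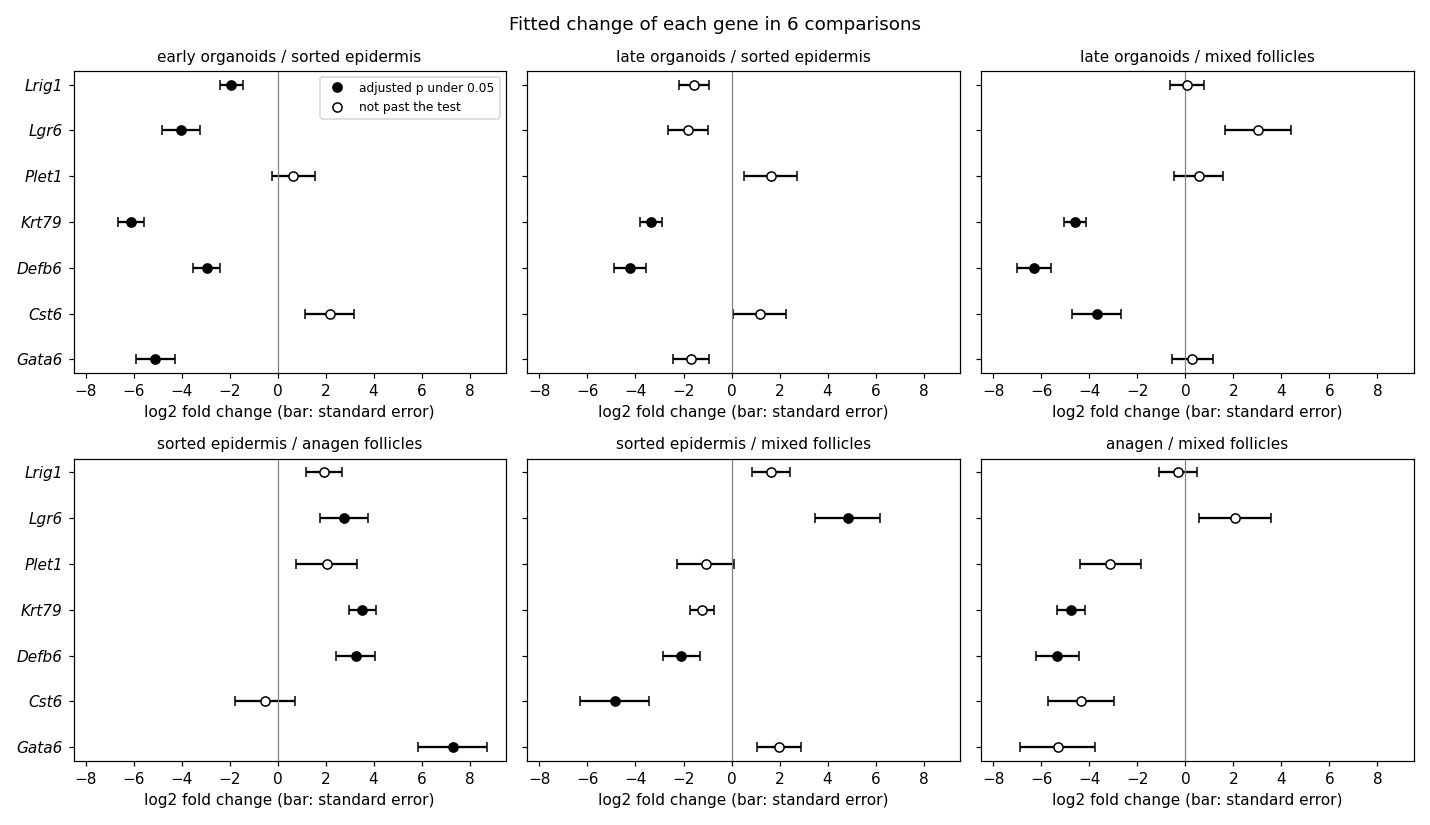
Fitted log2 fold change of each gene with its standard error in 6 comparisons, the group named before the slash over the group after it; filled points passed the test. Krt79 and Defb6 are filled and negative in all 3 organoid panels.

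In early organoids of 4 media against sorted epidermis, 5 members were lower, where 19.7% of all genes were. Krt79 reached 0 to 7.62 CPM over 12 early libraries (log2 fold change -6.12 ± 0.55, adjusted p = 2.04e-08) and Gata6 0 to 3.08 CPM (-5.09 ± 0.80, adjusted p = 3.64e-05). Lgr6 reached 0 to 2.72 CPM (-4.04 ± 0.79, adjusted p = 0.000267) and Lrig1 0.908 to 14.7 CPM (-1.92 ± 0.50, adjusted p = 0.0036). These 4 early ranges lay below the sorted epidermis without overlap, as did those of 20.5% of all genes tested. Defb6 was also lower (-2.96 ± 0.57, adjusted p = 0.000222), with 5.01 to 173 CPM and overlap with 1 epidermis library. Plet1 (0.65 ± 0.89, adjusted p = 0.604) and Cst6 (2.17 ± 1.01, adjusted p = 0.0926) did not pass. Summed Langerhans and T cell markers (5 genes) were 0 to 2.73 CPM in early organoids and 152 to 300 CPM in sorted epidermis; their part in the result was not tested.

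Between late and early organoids in the same medium, forskolin with Fgf1, none of 6 members tested passed (all genes 6.71%). Lgr6 had too few counts for the filter on low counts in every comparison among organoids, and Gata6 in those with unpassaged libraries. Krt79 was at 2.6 to 13.9 CPM in late organoids and at 1.23 and 1.95 CPM in early ones (log2 fold change 2.23 ± 1.02, adjusted p = 0.191). Gata6 had counts in 5 of 6 late libraries and in neither early library, at least 8.87-fold higher against a floor of 0.6 CPM, and its adjusted p was 0.0584. It passed in DESeq2 (adjusted p = 0.0181), in 1 fit of 27 libraries (0.031) and without the filter (0.0476). It did not pass with RLE, upper quartile or library total scaling.

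Defb6 was the member that passed a test of media with the TGF-beta inhibitor against media with Fgf1 or Fgf10. It had 5.45, 73.5, 31.2 and 80.8 CPM in early organoids with forskolin and inhibitor and 173 and 48.9 CPM with the inhibitor alone, against 15.2 and 8.59 CPM with Fgf1 and 26.4, 13.4, 5.01 and 18.4 CPM with Fgf10. In unpassaged libraries it had 99.2 CPM with forskolin and inhibitor (95% exact binomial interval 86.1 to 114) and 94.8 CPM with the inhibitor alone (82.4 to 108), against 15.6 CPM with Fgf1, 13.8 with Fgf10 and 8.57 with forskolin alone. Of the 8 inhibitor libraries 7 lay above all 8 Fgf libraries. A comparison of inhibitor against Fgf media, with passaging as a term, was chosen after these values were seen. It gave a log2 fold change of 2.41 ± 0.44 (adjusted p = 0.00192). Of all genes 7.24% passed, with 2.72% higher. The Defb6 call held without each library in turn (2.01 to 2.585). Of 6 fibroblast markers, 5 averaged at most 5.82 CPM in each early or unpassaged inhibitor and Fgf group. The other one, Sparc, a matrix glycoprotein, averaged 4.84 to 26.1 CPM in the inhibitor groups and 79.2 to 416 CPM in the Fgf groups, and its part in this result was not tested.

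Cst6 had 1011 and 968 CPM in unpassaged libraries with forskolin and inhibitor and with the inhibitor alone, against 174 CPM with Fgf1, 300 with Fgf10 and 226 with forskolin alone. In early organoids it had 84.5, 243, 136 and 522 CPM with forskolin and inhibitor and 782 and 1033 CPM with the inhibitor alone, against 250 and 234 CPM with Fgf1 and 626, 274, 179 and 561 CPM with Fgf10. Over both stages the inhibitor difference did not pass (0.89 ± 0.40, adjusted p = 0.205). In the comparisons within early organoids no member passed: inhibitor with forskolin against Fgf10 (all genes 0.575%), inhibitor with forskolin against inhibitor alone (0%) and Fgf1 against Fgf10 (0%). In these last 2 comparisons no gene passed in edgeR, 623 and 328 had an unadjusted p under 0.05, and DESeq2 called 24 and 15. Krt79 had no count in any of 4 early libraries with forskolin and inhibitor, at least 6.67-fold lower than with Fgf10 (7.62, 3.36, 0 and 1.23 CPM) against a floor of 0.457 CPM; edgeR gave an adjusted p of 0.169 and DESeq2 0.0279.

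**Figure D3:**
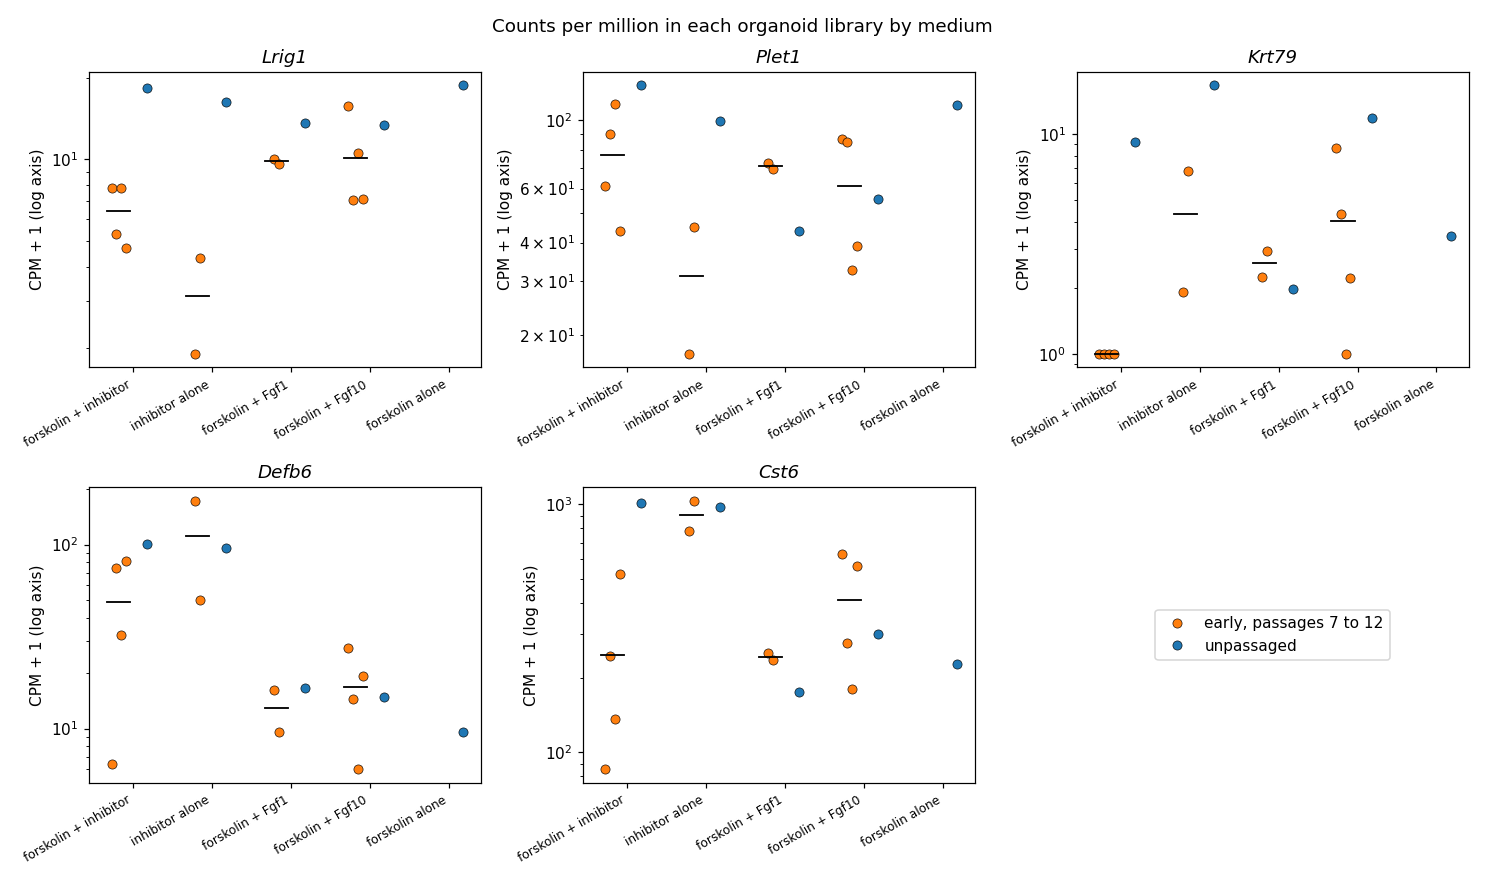
CPM + 1 on a log axis for 5 genes in each early (left, orange) and unpassaged (right, blue) organoid library by medium, with the mean of early groups as a line. Defb6 is higher in the media with the inhibitor than in those with Fgf1 or Fgf10 in all but 1 library.

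In a fit with a term for medium, early organoids were lower than unpassaged ones in Lrig1 (-1.16 ± 0.32, adjusted p = 0.0279) and Krt79 (-2.22 ± 0.67, adjusted p = 0.0403), 2 of 5 members tested (all genes 11.4%, with 6.28% lower). Lrig1 ranged from 0.908 to 14.7 CPM (median 6.48) in 12 early libraries and had 17.3, 15.3, 12.6 and 12.4 CPM in the 4 unpassaged ones. The groups overlapped in 1 early library. Krt79 ranged from 0 to 7.62 CPM (median 1.07) in the early libraries, 5 of them without a count, and from 0.972 to 15.7 CPM (median 9.54) in the 4 unpassaged ones. Within the 1 source table that holds both stages, with 2 early and 2 unpassaged libraries, the log2 fold change was -0.06 for Lrig1 (adjusted p = 0.967) and -0.29 for Krt79 (adjusted p = 0.886). In that table Krt79 had 7.62 and 1.23 CPM in early organoids and 10.9 and 0.972 CPM in unpassaged ones. Lrig1 was also lost without unpassaged libraries with forskolin and inhibitor (adjusted p = 0.133) or with the inhibitor alone (0.14), or early inhibitor-alone replicate 2 (0.056), and Krt79 without any 1 of 9 libraries (0.0514 to 0.209). No member passed the test of a difference in the response to passaging between inhibitor and Fgf media (all genes 0.03%). Plet1 had counts in every library, at 16.3 to 112 CPM (median 64.1) in early organoids and 42.8 to 129 CPM (median 76.5) in unpassaged ones, and the groups overlapped.

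Likeness was measured as Pearson's r of log2(mean CPM + 1) over the 13 groups, 5 of which are 1 library; the points share library, depth and source table, and r is a description. The gene most like Lrig1 was Trp63 (r = 0.95), the p63 transcription factor of basal epidermis, followed by Fgfr3 (0.92), a receptor for fibroblast growth factors, and Acad11 (0.90). Krt79 was most like Gsn (0.92), the actin-severing protein gelsolin, then the pseudogene Rps19-ps3 (0.88), whose reads can be shared with its parent gene, and Rab27a (0.86). Defb6 was most like Atp1b1 (0.89), a subunit of the sodium pump, and Gatc (0.86). Cst6 was most like Mpv17l (0.89), Psapl1 (0.82) and Slc15a1 (0.82), and Plet1 most like Stat3 (0.88), Rph3al (0.88) and Gna11 (0.87). Lgr6 was most like Ap1b1 (0.95), Ndufa2 (0.94) and Adck3 (0.93), and Gata6 most like Cdh13 (0.91), Phldb3 (0.90) and Crnde (0.90). Among members, Lgr6 and Gata6 had r = 0.75 and Krt79 and Defb6 r = 0.72.

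Lists of related genes were read beside the members. Of all genes tested, 12.2% were higher and 9.53% lower in late organoids than in sorted epidermis. Summed suprabasal genes (7 genes) were at 97 to 22154 CPM in late organoids and 3186 to 3295 CPM in sorted epidermis. The part of this difference in layers in the list results was not tested. Of 7 other antimicrobial genes 6 were tested in late organoids against sorted epidermis and 5 were higher, with a median log2 fold change of 7.55 against 0.04 over all genes, while Defb6 was lower. Genes at 0 in a group can also be set to the fold that 3 counts in the whole group would give, their bound, and the median was then 6.88. Sorted epidermis held at most 2 counts of each of Slpi, Defb4, Defb14 and Lcn2, so their folds are imprecise. It also held no count of Defb3 or Camp. The summed level of these 7 genes ran from 235 to 8438 CPM over the 6 late libraries, and the intervals below cover counting error only. Slpi, a protease inhibitor, had 11181 counts in late organoids and 1 in sorted epidermis, a ratio of CPM with a 95% exact interval of 535 to 117800. For Defb14, a beta-defensin, the interval was 162 to 4837, and for Lcn2, which binds bacterial siderophores, 22.2 to 668. Defb4, another beta-defensin, had no count in sorted epidermis and was at least 166-fold higher. Of 12 Lrig and EGF receptor family genes 9 were tested and 5 were higher and 1 lower (median 1.66). The ligand Hbegf was higher by 4.40 on the log2 scale, and for the ligands Ereg, Tgfa and Areg, with 1 or 2 counts in sorted epidermis, the ratio had intervals of 4.06 to 927, 3.48 to 801 and 4.19 to 129. Of 11 genes of the cystatins and their enzymes 5 were higher and 1 lower (median 2.37, or 1.69 with bounds). Tgm1, the transglutaminase, had no count in sorted epidermis and was at least 17.7-fold higher, and Stfa3, a stefin, was higher by 3.76. Of 9 R-spondin receptors and partners 6 were tested and 1, the ligand Rspo3, was lower: it had no count in late organoids, at least 86.3-fold lower. Of 8 other upper follicle genes 3 were higher and 1 lower (median 0.75): Klk10 (5.20), Krt17 (2.25) and Prdm1 were higher and Sostdc1 (-2.86) lower. Prdm1 had 1 count in sorted epidermis, and the ratio an interval of 4.39 to 1001. Of 14 sebaceous genes 9 were tested and 3 were higher (median 1.28), namely Mgst1 (2.80), Plin2 (1.83) and Fasn (1.34). Of 9 bulge genes 2 were higher and 4 lower (median -2.61, or -0.43 with bounds). Krt15 was lower (-5.21), and Lhx2, with no count in late organoids, was at least 32.1-fold lower. In the other direction, Sox9 averaged 1614 CPM in late organoids and 234.9 CPM in sorted epidermis, and Tcf7l1 averaged 26.7 and 6.5 CPM.

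In sorted epidermis against anagen follicles, 6 of 6 basal epidermis genes were higher (median 3.68 against -0.15 over all genes), including Col17a1 (5.54) and Krt14 (3.95). Among all genes tested there, 14.8% were higher and 19.4% lower. Of 8 other upper follicle genes 3 were higher and 3 lower, among them Sostdc1 (6.91) and Fst higher and Prdm1 and Krt75 lower. Fst had 2 counts in anagen follicles (95% interval of the ratio 20.8 to 670), and Prdm1 and Krt75 had 1 count each in sorted epidermis, with intervals of 39.2 to 8666 and 21.9 to 4852 for the ratio of anagen follicles to sorted epidermis.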

How the data were processed

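The submitters' processing notes name BWA 0.6.2-r126 and mm10. Not given in the sources used here are the counting program, its annotation and whether molecular identifiers were used. The authors deposited 1 file of counts per gene for each library, raw counts with no normalization, and 0 values departed from whole numbers. No per-sample column was left out. Names before the chromosome tag were joined, 14 spike-in names were left out, and CPM were computed from the library totals. Intervals (95%, Clopper-Pearson) and floors of 3 counts cover counting error only.

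Counts were tested with edgeR 4.0.16 in R 4.3.3 (TMM, filterByExpr by group, quasi-likelihood, Benjamini-Hochberg over all genes tested), with DESeq2 1.42.0 as an alternative. Tissue with Fgf1 organoids (17 libraries), passaged organoids (18), early with unpassaged organoids (16, with medium as a term) and all replicated groups (27) were fitted. Scripts were tested on simulated data. Members, lists and tests were chosen with earlier results of these data known. Text names all members, up to 4 called genes per list and the 3 genes most like each member, of which 1 is not reported here. Alternatives were added after seeing the data: late replicates 3 to 6, the inhibitor contrast, filtering by passaging stage and library total scaling. The labels' replicate numbers do not pair samples.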

Additional observations from a re-analysis of the deposited data

Results flagged for a closer look

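Dixon's test of the highest or lowest library was applied to 20 combinations of a member and a group of 4 to 6 libraries, and 3 passed. Chance flags about 1 in 20, but both Lgr6 values passed by construction, since any count passes where the other 3 libraries are at 0, so the number of passes is no evidence beyond chance. Plet1 was at 640.5 CPM in late replicate 3, against 4.85 to 46.4 CPM in the other 5 late libraries. Lgr6 was at 0.614 CPM, a single count, in replicate 4 of early organoids with forskolin and Fgf10, and at 0 in the other 3. Lgr6 was at 1.28 CPM, 3 counts, in replicate 3 of early organoids with forskolin and the inhibitor, and at 0 in the other 3.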

How the results depend on the processing

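Of 1400 alternative values of members' fold changes, 1263 kept their direction and their side of the threshold, 31 lost a call, 48 gained one and 58 changed sign; the cause was not tested. Krt79 and Defb6 in late organoids against sorted epidermis and mixed follicles, and in early organoids against sorted epidermis, kept their calls under every alternative run. Nothing in the labels pairs replicates of the same number. Correlations of same-numbered deviations ran from -0.14 to 0.40, and no comparison with 3 or more pairs was over 0.1 in every pair. The 0.40 was for replicate 1 of early Fgf1 and early Fgf10 organoids, which share a source table that their other replicates are not in. Replicate 2 of these groups also shares a source table, with a correlation of 0.03. With the replicate block the early against unpassaged calls numbered 96 genes and 0 members. Every unpassaged library is numbered 1, so in that fit the passaging term rests on the early libraries numbered 1. The smaller counts of calls are therefore no test of pairing. Low depth limits Lgr6 and Gata6, with at most 11 and 17 counts in a library. TMM-scaled CPM left 82 of 91 group levels within the replicate spread or interval and moved 9. Those that moved included the mixed follicle means of Cst6 (1384 to 2428 CPM), Defb6 (623.8 to 1021), Krt79 (108.6 to 177.5) and Plet1 (42.7 to 73). Lrig1 (3.78 to 7.56 CPM) and Gata6 (2.13 to 3.61 CPM) moved there too. 

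For anagen follicles against mixed follicles, the number of genes past the test was 719 and became 400 to 662 when each library was left out. The members past the test numbered 2 and became 4 in 1 fit of 27 libraries, in DESeq2 and with the 2 groups alone and 5 without the filter and with a replicate block. The log2 value of Lrig1 was -0.31 and became 0.56 with library totals and -1.19 to 0.80 when each library was left out.

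For early organoids against unpassaged organoids, the number of genes past the test was 1136 and became 309 within 1 source table, 96 with a replicate block and 203 to 1351 when each library was left out. Of the 7 genes, those past the test numbered 2 and became 0 within 1 source table and with a replicate block and 0 to 2 when each library was left out. A fold change of -0.41 (log2) for Cst6 became 0.84 within 1 source table and -0.69 to 0.39 when each library was left out. In the case of Defb6, -0.18 on the log2 scale became 0.52 within 1 source table, 0.15 with a replicate block and -0.46 to 0.18 when each library was left out. For Plet1 the log2 fold change was -0.34, and became 0.74 within 1 source table and -0.61 to 0.032 when each library was left out.

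For early Fgf1 organoids against early Fgf10 organoids, the number of genes past the test was 0 and became 1 in 1 fit of 27 libraries, 15 in DESeq2, 3 without the filter, 43 with the 2 groups alone and 0 to 6 when each library was left out. Krt79 had a log2 fold change of -0.97 and one of -1.40 to 0.022 when each library was left out. The log2 value of Lrig1 was -0.12 and became 0.15 within the other early source table and -0.25 to 0.18 when each library was left out. A fold change of 0.12 (log2) for Plet1 became -0.10 to 0.39 when each library was left out.

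For early organoids with forskolin and inhibitor against early Fgf10 organoids, the number of genes past the test was 57 and became 94 in 1 fit of 27 libraries, 138 in DESeq2, 115 without the filter, 99 within the other early source table, 123 with the 2 groups alone and 17 to 47 when each library was left out. Of the 7 genes, those past the test numbered 0 and became 1 in DESeq2. In the case of Gata6, 1.04 on the log2 scale became -0.26 to 2.07 when each library was left out. For Plet1 the log2 fold change was 0.22, and became -0.10 with a replicate block and -0.014 to 0.49 when each library was left out.

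For early organoids with forskolin and inhibitor against early organoids with inhibitor alone, the number of genes past the test was 0 and became 9 in 1 fit of 27 libraries, 24 in DESeq2, 19 without the filter, 15 within the other early source table, 33 with a replicate block, 5 with the 2 groups alone and 0 to 16 when each library was left out. Defb6 had a log2 fold change of -1.17 and one of -1.81 to 0.026 when each library was left out. The log2 value of Gata6 was 1.17 and became -0.13 to 3.84 when each library was left out.

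For sorted epidermis against anagen follicles, a fold change of -0.52 (log2) for Cst6 became 0.076 with library totals.

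For sorted epidermis against mixed follicles, the members past the test numbered 3 and became 6 with the 2 groups alone and 1 to 3 when each library was left out. In the case of Plet1, -1.08 on the log2 scale became 0.081 with library totals.

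For inhibitor media against Fgf media, the number of genes past the test was 723 and became 1247 without the filter and 458 to 760 when each library was left out. Of the 7 genes, those past the test numbered 1 and became 2 without the filter. For Krt79 the log2 fold change was -0.15, and became -1.86 to 0.21 when each library was left out. Plet1 had a log2 fold change of -0.0086 and one of 0.0017 with the filter by stage, 0.087 with library totals, 0.0037 with a replicate block, 0.0019 with RLE scaling, 0.0084 with upper quartile scaling and -0.30 to 0.22 when each library was left out.

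For late organoids against early Fgf1 organoids, the number of genes past the test was 666 and became 1137 in DESeq2, 1 with the 2 groups alone and 44 to 1097 when each library was left out. The members past the test numbered 0 and became 1 in 1 fit of 27 libraries, in DESeq2, without the filter and with a replicate block and 0 to 1 when each library was left out. The log2 value of Cst6 was -0.25 and became 0.33 over late replicates 3 to 6 and -0.63 to 9.1e-05 when each library was left out. A fold change of 0.26 (log2) for Defb6 became -0.26 to 0.65 when each library was left out. In the case of Plet1, 0.73 on the log2 scale became -0.42 with a replicate block and -1.77 to 0.96 when each library was left out.

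For late organoids against sorted epidermis, the number of genes past the test was 2360 and became 1377 with the 2 groups alone and 1296 to 2547 when each library was left out. Of the 7 genes, those past the test numbered 2 and became 4 over late replicates 3 to 6. For Cst6 the log2 fold change was 1.17, and became -0.78 with a replicate block. Plet1 had a log2 fold change of 1.63 and one of -0.85 to 1.89 when each library was left out.

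For late organoids against mixed follicles, the log2 value of Gata6 was 0.29 and became -0.17 over late replicates 3 to 6 and -0.11 to 0.57 when each library was left out. A fold change of 0.068 (log2) for Lrig1 became -0.018 in DESeq2 and -0.42 to 1.22 when each library was left out. In the case of Plet1, 0.55 on the log2 scale became -1.93 to 0.98 when each library was left out.

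For the passaging difference between inhibitor and Fgf media, the number of genes past the test was 3 and became 19 in DESeq2, 103 without the filter and 0 to 5 when each library was left out. Of the 7 genes, those past the test numbered 0 and became 1 without the filter. For Defb6 the log2 fold change was -0.31, and became -0.82 to 0.41 when each library was left out.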
